A study of Rattus norvegicus with 23 samples.

Results

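A set of 10 genes with large differences in array signal between 2 inbred rat strains was read in the area postrema. They had been put together as genes nearly on or off, but only Abhd11-as1 and RGD1309362 were near the bottom of the array in the lower strain. The area postrema is a sensory circumventricular organ of the hindbrain, open to blood-borne hormones and toxins, that feeds into the control of blood pressure, feeding and fluid balance. The 10 genes are Prss35, Terf2ip, Fry, Zfp597, Abhd11-as1, RGD1309362, Setd1b, Mcub, Car14 and Tstd1. They were chosen by their large differences in signal between the spontaneously hypertensive rat (SHR) and the Wistar Kyoto rat (WKY) in these same arrays. That difference is therefore given as a description, without a test. They are 10 of the 14217 genes that the platform annotation names. Every probe set whose only gene symbol in the platform annotation was 1 of these names was taken, which gave 15 of the 31099 probe sets of the Affymetrix Rat Genome 230 2.0 array. A probe set is a group of short oligonucleotides read together as 1 signal. Of the genes, 8 had 1 probe set, Car14 had 2 and Fry had 5. Sequence variants of the strains under these oligonucleotides were not examined, so signal is read here as transcript level with that limit.

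The series asks how transcript levels of this tissue differ in hypertensive, hungry and thirsty rats, and it holds 23 arrays from male rats. SHR and WKY animals, 10 to 13 weeks old, gave 5 arrays each. Sprague Dawley rats, 10 to 12 weeks old, gave 4 control arrays, 5 arrays after fasting for 48 h and 4 arrays after dehydration for 72 h. The Sprague Dawley arrays belong to another submission than SHR and WKY. Wherever they are set beside those strains, strain and submission cannot be told apart. The labels put RNA of 5 animals on each array, so that the spread between arrays is a spread between pools.

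SHR is an inbred line bred from Wistar stock for high blood pressure, and WKY is the normotensive inbred line usually set beside it, whereas Sprague Dawley is an outbred stock. Inbred lines are fixed for different alleles at many loci, and an allele that alters a promoter, a splice site or the copy number of a gene can set the level of that transcript in every animal of a line. Differences of this kind are known from many tissues of these strains. The genes here have unrelated functions. They include a telomere protein, a chromatin enzyme, a calcium channel subunit, a carbonic anhydrase, a zinc finger protein and a non-coding RNA.

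Values are the deposited signals, linear intensities scaled to a common trimmed mean, and array medians ran from 39.81 to 44.48. Log2 differences were taken on log2(signal + 16), which understates changes at low signal. The tissue label was checked on 8 marker genes of the area postrema, of which 7 were on the array and were all kept by the filter on dim probe sets. Median signals of these 7 ran from 33.4 for Glp1r, which is dim, to 1974.3 for Cartpt. The calcitonin receptor Calcr had a median signal of 121.5 and the noradrenaline enzyme Dbh 256.5. Summed fibroblast markers ran from 2110 to 2806 in SHR and from 3063 to 3739 in WKY. Summed microglial markers ran from 1204 to 1665 in SHR and from 1676 to 1944 in WKY. In both lists all 6 markers were measured, and 3 of them were lower in SHR by limma, while the summed levels of the astrocyte, oligodendrocyte, neuron, endothelial, ependymal and choroid plexus lists overlapped between the strains. The area postrema list summed to 2749 to 3301 in SHR and 2294 to 2657 in WKY, with 1 of its 7 genes higher in SHR. No marker was at 0 in any array. The part of these cell types in the strain differences was not tested, and in bulk tissue fewer cells of a type and less RNA per cell cannot be told apart.

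**Figure D1:**
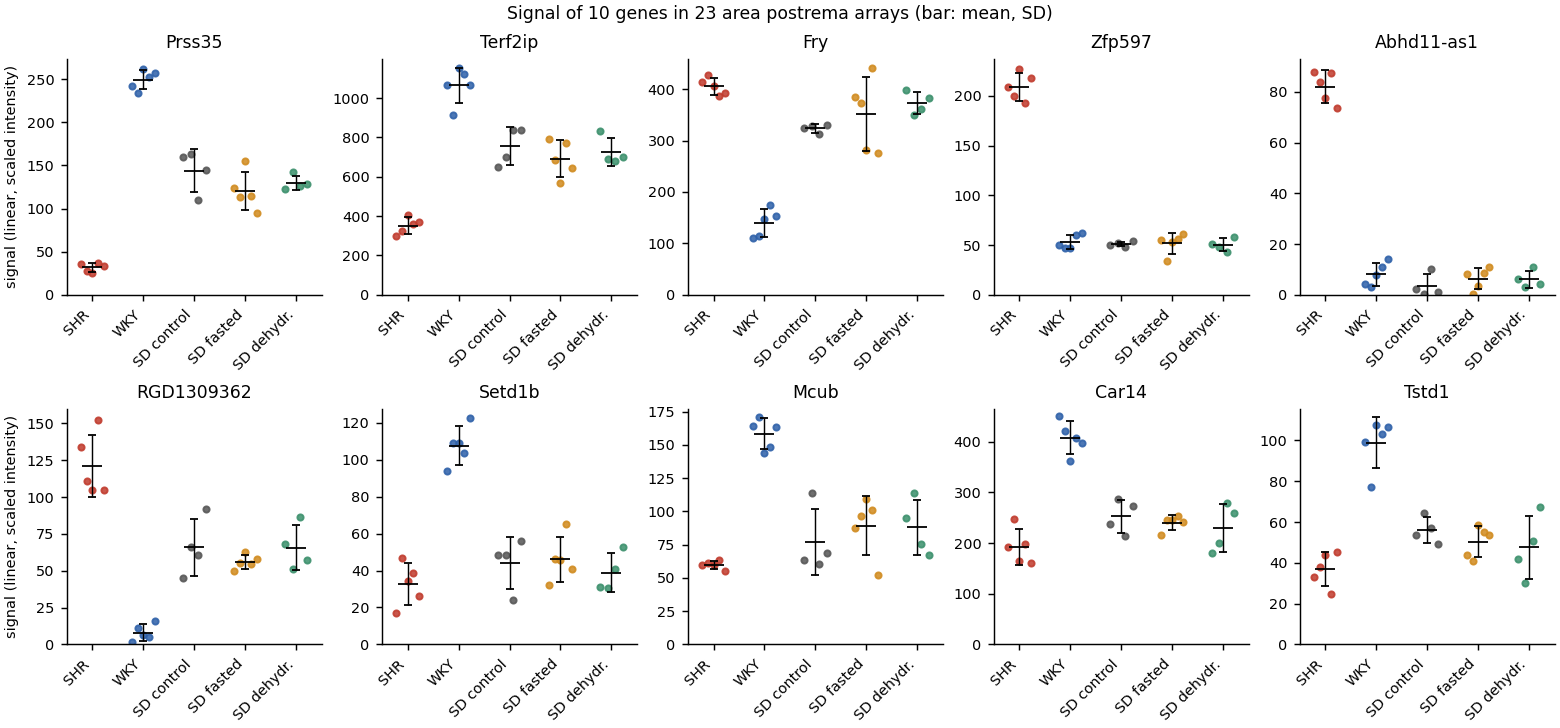
Signal (linear, scaled intensity; each panel has its own axis from 0) of the 10 genes, each at its brightest probe set, in the 5 groups of arrays (SHR 5, WKY 5, Sprague Dawley control 4, fasted 5, dehydrated 4). Points are arrays and bars are the mean and SD; SHR and WKY do not overlap in any panel, and Sprague Dawley lies with WKY for Zfp597 and Abhd11-as1 but between the strains for Prss35, Terf2ip and RGD1309362.

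The gene starts were compared first. Of the 10 genes, 8 had an entry among the RefSeq promoters of the rat assembly GRCr8, whose reference animal is of another inbred strain, so the sequences are not those of SHR or WKY. The 250 bases before the annotated start are shown for the 4 of these 8 genes whose strains lay farthest apart relative to the spread within a strain. Capitals mark a CCAAT box or a GC box (GGGCGG) on either strand, and each line reads 5′ to 3′ on the strand of the gene. Zfp597 lies on the plus strand at chr10:12159283-12159532, Abhd11-as1 on the plus strand at chr12:27317406-27317655, Terf2ip on the plus strand at chr19:56885961-56886210 and Mcub on the minus strand at chr2:221223815-221224064.
Zfp597: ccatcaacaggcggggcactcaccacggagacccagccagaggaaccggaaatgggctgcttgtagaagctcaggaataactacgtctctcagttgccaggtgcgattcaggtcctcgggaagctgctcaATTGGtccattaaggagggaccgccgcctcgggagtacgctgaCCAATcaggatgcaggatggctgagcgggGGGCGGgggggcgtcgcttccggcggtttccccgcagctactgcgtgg
Abhd11-as1: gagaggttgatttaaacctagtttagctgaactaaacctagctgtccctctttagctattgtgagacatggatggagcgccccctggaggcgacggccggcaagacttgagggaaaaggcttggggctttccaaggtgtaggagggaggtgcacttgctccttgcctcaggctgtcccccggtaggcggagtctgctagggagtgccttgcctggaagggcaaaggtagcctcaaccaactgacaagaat
Terf2ip: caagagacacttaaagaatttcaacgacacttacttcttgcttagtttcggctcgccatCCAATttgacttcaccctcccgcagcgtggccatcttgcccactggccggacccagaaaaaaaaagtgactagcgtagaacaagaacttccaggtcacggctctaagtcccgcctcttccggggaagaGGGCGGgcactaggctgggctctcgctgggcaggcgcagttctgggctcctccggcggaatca
Mcub: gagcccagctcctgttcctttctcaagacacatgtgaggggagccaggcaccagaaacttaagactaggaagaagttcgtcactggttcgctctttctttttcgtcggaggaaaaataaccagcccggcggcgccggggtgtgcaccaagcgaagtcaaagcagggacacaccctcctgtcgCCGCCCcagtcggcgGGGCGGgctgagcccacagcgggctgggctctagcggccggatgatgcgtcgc

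These windows have no common make-up. Zfp597 held 18 CpG dinucleotides, 2 CCAAT boxes and 1 GC box, and Terf2ip held 15 CpG dinucleotides with 1 box of each kind. Mcub held 19 CpG dinucleotides and 2 GC boxes, whereas Abhd11-as1 held 6 CpG dinucleotides and neither box. Over the 33469 promoters of the table the median was 5 CpG dinucleotides. A GC box was in 5 of the 8 genes and in 30.5% of all promoters, and a CCAAT box in 2 of the 8 and in 34%. TATAAA was in 0 of the 8 and in 12.9% of all. These matches describe the letters in the reference window only.

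Zfp597 and Abhd11-as1 were high in SHR alone. Zfp597 is a zinc finger protein whose human counterpart is an imprinted gene beside NAA60. Its signal was 209.1, 199.4, 227.2, 192.4 and 217.6 in the SHR arrays and 49.9, 46.8, 47.4, 59.7 and 61.9 in WKY. The Sprague Dawley controls read 50.3, 51.6, 48.3 and 53.7, and all 13 Sprague Dawley arrays ran from 33.9 through a median of 51.6 to 60.8. Even the lowest SHR array stood far above the brightest array of the other strains, which was 61.9, and WKY and Sprague Dawley overlapped. SHR minus WKY was 1.71 on the log2 scale (SE 0.08, n = 5 and 5), and the mean signals had a ratio of 3.94.

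Abhd11-as1 is a long non-coding RNA transcribed beside Abhd11, a mitochondrial hydrolase gene, and it was matched by its own gene identifier. Its signal was 88.0, 83.8, 77.5, 87.6 and 73.5 in SHR. In WKY it was 4.3, 3.2, 7.9, 10.8 and 14.2, and in the 13 Sprague Dawley arrays it ran from 0.5 through 4.2 to 11. Within each array's own signals, SHR lay at percentiles from 63.1 to 68.0, WKY from 8.4 to 23 and Sprague Dawley from 0.8 to 21.1. The transcript was therefore near the bottom of the array in both other strains. The log2 difference was 2.04 (SE 0.13), and the ratio of mean signals of 10.1 rests on a WKY mean of 8.1 ± 4.6 (SD, n = 5), which carries background.

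RGD1309362 was on in SHR, near the bottom in WKY and intermediate in Sprague Dawley. The gene table also calls it Ifgga1, a member of the interferon-inducible GTPases, which act in cell-autonomous defence against intracellular microbes. SHR arrays read 133.7, 111.2, 104.7, 152.5 and 104.7, and WKY arrays 1.8, 10.9, 6.1, 4.8 and 16. Sprague Dawley controls read 45.2, 66.4, 60.6 and 91.8, and the 13 arrays of that strain ran from 45.2 through 58.2 to 91.8. None of the 3 strains overlapped another. The log2 difference between SHR and WKY was 2.54 (SE 0.18), the second largest in size among the 18625 probe sets kept. That rank is on the contrast by which the genes were chosen, so it is a description only. The ratio of mean signals of 15.3 rests on a WKY mean of 7.9 ± 5.6 (SD, n = 5), which carries background. Near-identical relatives lie beside this gene, so its probe set may also read their transcripts and the value is uncertain in that respect.

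Prss35 and Terf2ip had the opposite sign, with Sprague Dawley again between the strains. Prss35 is a secreted protein of the serine protease family. Its signal was 36.2, 27.1, 25.2, 36.4 and 33.7 in SHR and 242.4, 233.7, 261.6, 252.8 and 257.1 in WKY. The Sprague Dawley controls read 159.3, 163.0, 109.5 and 144.8, and the 13 arrays ran from 95.2 through 125.7 to 163.0. WKY arrays were tight and each was brighter than every Sprague Dawley array, which in turn were all brighter than SHR. The log2 difference, SHR minus WKY, was -2.48 (SE 0.08), and the mean signals had a ratio of 7.86.

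Terf2ip encodes RAP1, the shelterin subunit that binds TRF2 at telomeres and also acts away from them as a regulator of transcription. SHR arrays read 297.6, 325.5, 403.7, 360.9 and 372.1, and WKY arrays 1067.0, 915.2, 1151.6, 1122.2 and 1065.7. The Sprague Dawley controls read 650.1, 699.3, 837.8 and 840.3, within a range of 567.9 to 840.3 and a median of 698.1 over the 13 arrays. The log2 difference was -1.56 (SE 0.09). Terf2ip was thus lowered and not switched off: its SHR arrays still lay between the 90.0 and 93.0 percentiles of each array.

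Fry, a microtubule-binding scaffold that works with the NDR kinases, was low in WKY only. Its bright probe set 1377011_at read 412.9, 426.9, 406.5, 387.0 and 392.4 in SHR and 109.8, 115.2, 147.3, 175.3 and 153.6 in WKY. The Sprague Dawley controls were close together at 324.1, 329.0, 312.1 and 330.6, below every SHR array, while the 13 arrays ran from 275.3 through 350.1 to 441.8 and overlapped SHR. The log2 difference was 1.45 (SE 0.12), a ratio of mean signals of 2.89.

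The other 4 probe sets of Fry did not show this difference. All were dim, below the filter on low signal, and their SHR minus WKY differences ran from -0.17 to 0.19 with overlapping arrays in each. At 1390712_at, for example, SHR averaged 32.9 ± 12.4, WKY 26.0 ± 6.3 (SD, n = 5 and 5) and the 13 Sprague Dawley arrays ran from 2.5 to 29.2. The Fry difference therefore stands on 1 probe set of 5. The SHR arrays at 1390712_at lay between the 30.1 and 50.2 percentiles of their arrays, above the very bottom, and the disagreement between the Fry probe sets was not examined further.

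Car14, a membrane carbonic anhydrase that interconverts carbon dioxide and bicarbonate at the cell surface, was lower in SHR at both of its probe sets. At 1373790_at SHR read 192.9, 247.8, 165.2, 197.2 and 159.7, WKY 450.5, 420.5, 361.7, 407.3 and 397.7, and the Sprague Dawley controls 238.5, 286.2, 213.6 and 272.9. At 1374039_at SHR read 68.5, 84.0, 53.3, 45.8 and 48.8, WKY 103.4, 129.8, 104.0, 111.2 and 104.0, and the controls 90.8, 65.4, 49.6 and 45.7. At both, WKY stood above all other arrays while the Sprague Dawley controls overlapped SHR. SHR minus WKY was -1.03 (SE 0.12) at the first and -0.75 (SE 0.14) at the second, with the same sign and a smaller change at the dimmer one. Sprague Dawley was placed differently: over its 13 arrays the mean was 241.0 against 192.6 in SHR at the first, but 56.8 against 60.1 at the second.

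**Figure D2:**
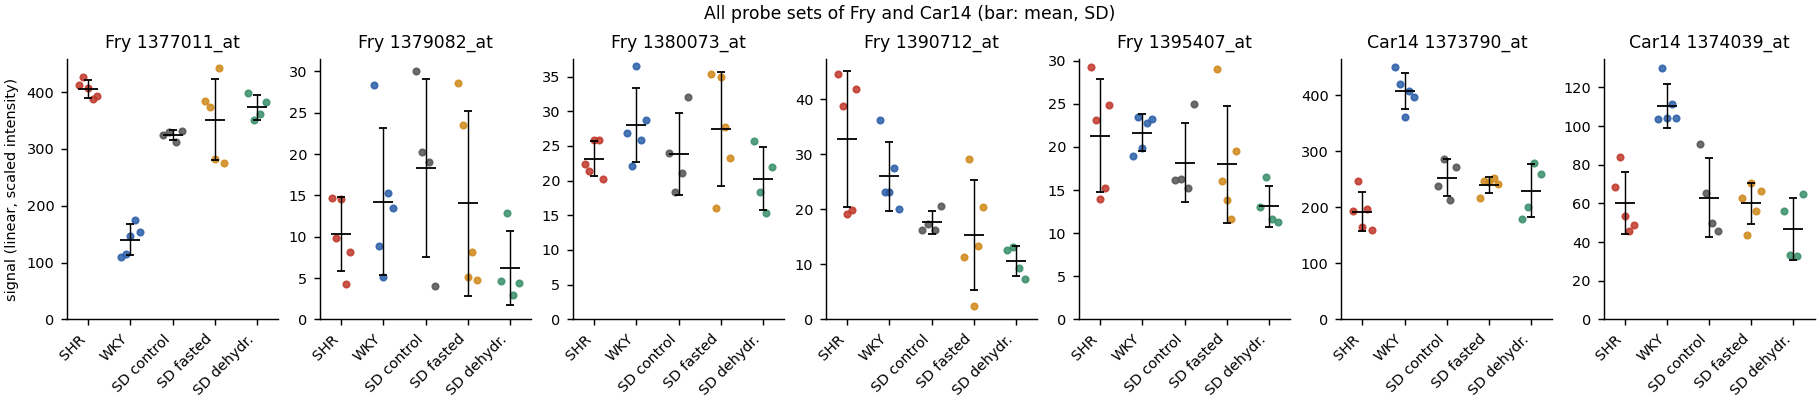
Signal (linear, scaled intensity; each panel has its own axis from 0) of the 5 Fry and the 2 Car14 probe sets in the 5 groups, with arrays as points and the mean and SD as bars. The SHR and WKY arrays are apart at 1 of the 5 Fry probe sets and at both Car14 probe sets.

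Setd1b, Mcub and Tstd1 completed the genes higher in WKY. Setd1b is a histone methyltransferase of the SET1 type, which methylates lysine 4 of histone H3 at promoters. SHR read 17.2, 46.6, 34.3, 38.9 and 26.4, WKY 93.9, 109.2, 109.3, 103.7 and 122.4, and the Sprague Dawley controls 48.2, 48.2, 24.0 and 56.2. The SHR arrays were scattered, with an SD of 11.4 around a mean of 32.7, but none reached WKY, and Sprague Dawley overlapped SHR. Their log2 difference was -1.38 (SE 0.17).

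Mcub is the inhibitory paralogue of the pore subunit of the mitochondrial calcium uniporter and lowers calcium uptake when it joins the channel. SHR read 59.6, 61.5, 59.4, 63.6 and 55.1, and WKY 164.3, 171.3, 144.1, 148.2 and 163.7. The Sprague Dawley controls were 63.5, 113.5, 60.8 and 69.0, and the 13 arrays ran from 52.2 through 87.2 to 113.5. SHR was tight, Sprague Dawley was spread over a range that began with the SHR arrays, and no Sprague Dawley array came up to WKY. On the log2 scale SHR was below WKY at -1.20 (SE 0.05), the smallest error of the 10 genes.

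Tstd1 carries a rhodanese-like domain and transfers sulfur from thiosulfate. SHR read 33.1, 37.8, 43.7, 24.9 and 45.2, WKY 99.0, 77.2, 107.6, 103.4 and 106.6, and the Sprague Dawley controls 53.4, 64.4, 57.3 and 49.1. The controls lay between the strains without overlap, although the 13 arrays, from 30.1 to 67.2, overlapped SHR. On the log2 scale the difference was -1.12 (SE 0.13).

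Across the 10 genes, 4 were higher in SHR and 6 in WKY. Of the 15 probe sets, 11 passed the filter in the fit of SHR and WKY. Arrays of the strains were apart at all 11, against 6.33% of all probe sets kept, a count that follows from how the genes were chosen. No detection calls were used, so a low level and absence of a transcript in the lower strain cannot be told apart. Of the 10 genes, only Abhd11-as1 and RGD1309362 had every array of the lower strain at or under the 25.2 percentile of its array. That value is the highest WKY percentile of RGD1309362 and not a limit of detection. In SHR, Prss35 lay between the 36.8 and 45.7 percentiles, Setd1b between 25.8 and 52.9 and Tstd1 between 35.9 and 50.9. At their brightest probe sets Zfp597, Fry, Car14 and Mcub kept a middling or high signal in all arrays of the lower strain.

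Sprague Dawley was next set beside the inbred strains as a further strain. Strain and submission cannot be told apart for these arrays, and their levels are given without a test. Summed choroid plexus markers ran from 427 to 6751 in the controls, against 102 to 222 in SHR and 134 to 281 in WKY. Summed microglial markers ran from 1127 to 1203 in the controls, below both inbred strains. The part of these marker differences in the Sprague Dawley levels was not tested. The control mean lay nearer WKY for 4 genes (Abhd11-as1, Prss35, Terf2ip and Zfp597) and nearer SHR for 6. Over all probe sets kept the control mean was nearer WKY for 51.1%, among those that passed the limma threshold between the strains for 48.6%, and among the 58 with a strain difference of at least 2-fold, which include the members, for 41.4%. The split of the members was thus near that of other probe sets.

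On a scale from the WKY mean at 0% to the SHR mean at 100%, the Sprague Dawley controls lay at -15% for Abhd11-as1, -2.4% for Zfp597, 29.9% for Prss35 and 31.3% for Terf2ip. They lay at 59.5% for Tstd1, 63.9% for Car14, 70.0% for RGD1309362, 77.8% for Setd1b, 78.6% for Mcub and 78.7% for Fry. The control arrays were apart from SHR for 7 genes, against 16.8% of all probe sets, and apart from WKY for 8, against 17.0%. The genes were picked for a wide gap between the strains, so these counts are not independent of the choice. Control arrays were between the strains and overlapped neither for 5 genes (Prss35, Terf2ip, Fry, RGD1309362 and Tstd1), against 25.9% of the 58 probe sets with a difference of at least 2-fold. With all 13 Sprague Dawley arrays, Prss35, Terf2ip and RGD1309362 stayed apart from both strains. The share of other probe sets that do so was not counted, so this describes these genes only.

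**Figure D3:**
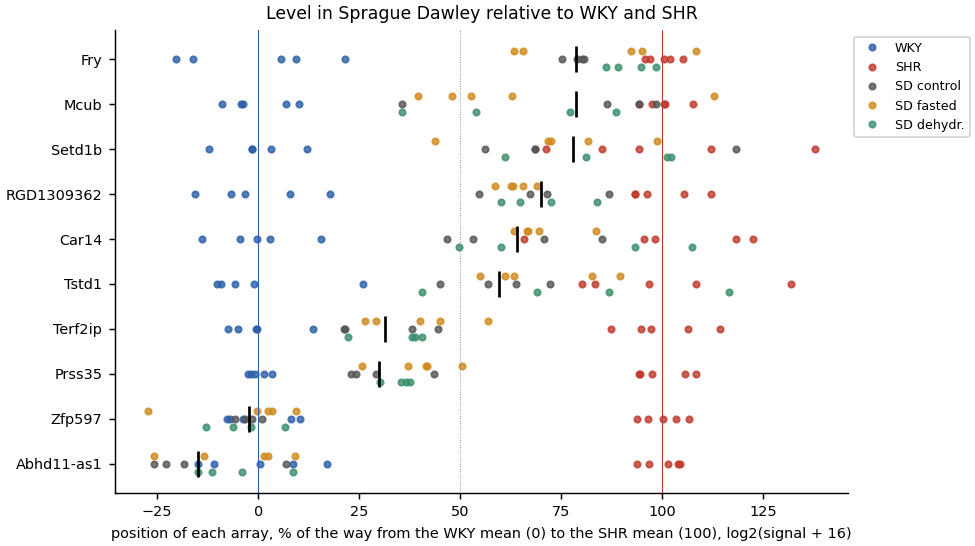
Position of each array on a scale from the WKY mean (0%) to the SHR mean (100%), computed on log2(signal + 16), for the 10 genes. Points are arrays, black ticks are the Sprague Dawley control means, and the dotted line is at 50%; the ticks run from -15% for Abhd11-as1 to 78.7% for Fry, with 4 on the WKY side.

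Fasting and dehydration were tested on the 13 Sprague Dawley arrays, which the choice of genes did not use. By limma with Benjamini-Hochberg adjustment over 18625 probe sets, 0 of the 10 member probe sets kept in this fit passed after fasting, where 0.0215% of all probe sets did. After dehydration 0 of 10 passed, against 0.166% of all, and 0 of 10 passed between dehydrated and fasted, against 0.0322%. In each contrast 0 of the 10 also had an unadjusted limma p below 0.05. Of all probe sets 7.19% did after fasting, 11.7% after dehydration and 10% between the treatments. With only 10 probe sets, a count of 0 is near these shares.

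The differences were within 0.33 log2 units of 0 in all 3 contrasts. After fasting they ran from -0.23 for Prss35 (SE 0.12, limma adjusted p = 0.7) to 0.19 for Mcub. After dehydration they ran from -0.33 for the dimmer Car14 probe set (SE 0.18, limma adjusted p = 0.497) to 0.19 for Fry (SE 0.11, limma adjusted p = 0.512). Between the treatments they ran from -0.30 for the same Car14 probe set to 0.17 for RGD1309362, with a smallest adjusted p of 0.593. Abhd11-as1 and the 4 dim Fry probe sets fell below the filter in these arrays and were not tested. Summed choroid plexus markers varied widely within each of these groups, from 427 to 6751 among the controls, from 213 to 6582 after fasting and from 482 to 8143 after dehydration, and the part of this in the spread of the members was not tested.

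**Figure D4:**
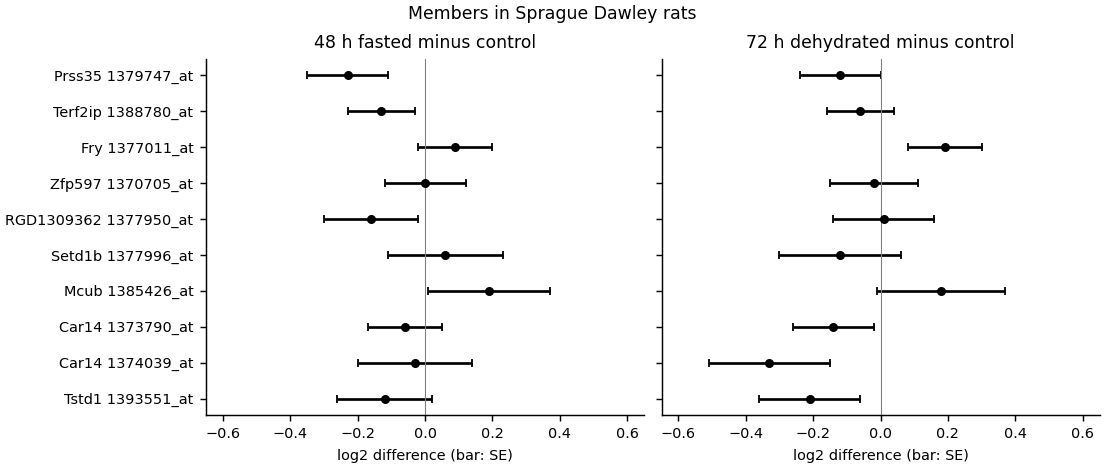
Log2 differences with their SE (horizontal axis) for the 10 member probe sets kept among the 13 Sprague Dawley arrays. The panels show fasted against control and dehydrated against control arrays. All differences lie between -0.33 and 0.19, and none passed the limma threshold.

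Genes next to the members on the chromosomes were then compared between SHR and WKY. Neighbours were the 5 measured genes on each side in the GRCr8 gene order, 100 in all. A gene counted as measured here if its brightest probe set passed the filter on dim probe sets in SHR and WKY. Of these, 13 passed the limma threshold, 8 higher and 5 lower in SHR, which is 13% against 5.06% of all probe sets. The 2 shares are not of like sets, since neighbours were read at their brightest probe set and the 5.06% covers every probe set kept. The median difference was 0 over the neighbours and 0.01 over all probe sets. Only 2 of the 13 had the sign of the member beside them and 11 had the opposite sign. Of the 20 nearest measured genes, 2 passed. Measured genes can be far apart, since annotated genes without a probe set, or with only dim ones below the filter, were skipped. The distance in annotated genes is therefore given for each named gene that passed.

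The largest group of such neighbours lay beside Mcub, where 3 of 10 were higher in SHR although Mcub itself was lower. They were Pla2g12a, a secreted phospholipase, 3 annotated genes away (87.9 in SHR and 50.4 in WKY on average, log2 difference 0.65, SE 0.11, limma adjusted p = 0.000931), Elovl6, a fatty acid elongase, 11 away (0.66, SE 0.10, adjusted p = 0.000367), and Ostc, a subunit of the oligosaccharyltransferase, 8 away (0.56, SE 0.08, adjusted p = 0.000256). A further Elovl6 probe set gave 0.28 with an adjusted p of 0.46. Beside Tstd1, the leukocyte antigen Cd48, 16 annotated genes away, was higher in SHR (0.51, SE 0.07, limma adjusted p = 7.21e-05). The amidase gene Nit1, 6 away, was higher too (0.29, SE 0.06, adjusted p = 0.00669), and a further Nit1 probe set gave 0.31 but did not pass (adjusted p = 0.186).

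Beside Prss35, the malic enzyme Me1, 2 annotated genes away, fell in SHR as Prss35 did. Its mean signal was 675.9 ± 78.4 in SHR and 1059.5 ± 52.5 in WKY (SD, n = 5 and 5), a log2 difference of -0.64 (SE 0.07, limma adjusted p = 1.33e-05). A further Me1 probe set gave -0.69. Mrap2, an accessory protein of melanocortin receptors, 4 genes away, was higher in SHR by 0.36 (SE 0.08, limma adjusted p = 0.0142). With the Gapdh 3' to 5' ratio, a measure of RNA integrity, as a covariate the difference was 0.30 and the limma adjusted p was 0.0588, which no longer passed. That ratio ran from 0.04 to 0.41 log2 units in SHR and from 0.03 to 0.21 in WKY.

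Beside Terf2ip, the transcription factor gene Maf, 37 annotated genes away, was lower in SHR, as Terf2ip was (-0.46, SE 0.10, limma adjusted p = 0.00766), with Tmem170a, 7 away, higher (0.44, SE 0.10, adjusted p = 0.0111). A further Maf probe set gave -0.14 with an adjusted p of 0.466, and a dim one below the filter gave -0.30. Beside Fry, the glucosyltransferase gene B3glct, 16 annotated genes away, was lower in SHR (-0.53, SE 0.09, limma adjusted p = 0.00121). The ceramide synthase Cers4 was lower too (-0.55, SE 0.13, adjusted p = 0.013), 174 annotated genes away. Further B3glct probe sets, dim and below the filter, gave 0.03 and -0.10. For Zfp597 the only neighbour that passed, Hcfc1r1 (-0.39, SE 0.08, limma adjusted p = 0.00631), lay 69 annotated genes away. For Car14 it was Prpf3 (0.34, SE 0.08, limma adjusted p = 0.0158), 5 away. Further Prpf3 probe sets, dim and below the filter, gave -0.20 and -0.05.

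By limma 0 of the 10 neighbours of Abhd11-as1, RGD1309362 or Setd1b passed, with 0, 5 and 5 at an unadjusted p below 0.05, where 17.2% of all probe sets were. Abhd11 itself, from whose locus the non-coding RNA is named, differed by -0.12 (limma adjusted p = 0.498). Naa60, beside Zfp597, differed by 0 (adjusted p = 0.997). The GTPase gene Ifgga2l1 beside RGD1309362 was 0.67 higher in SHR with a wide error (SE 0.22, limma adjusted p = 0.115).

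**Figure D5:**
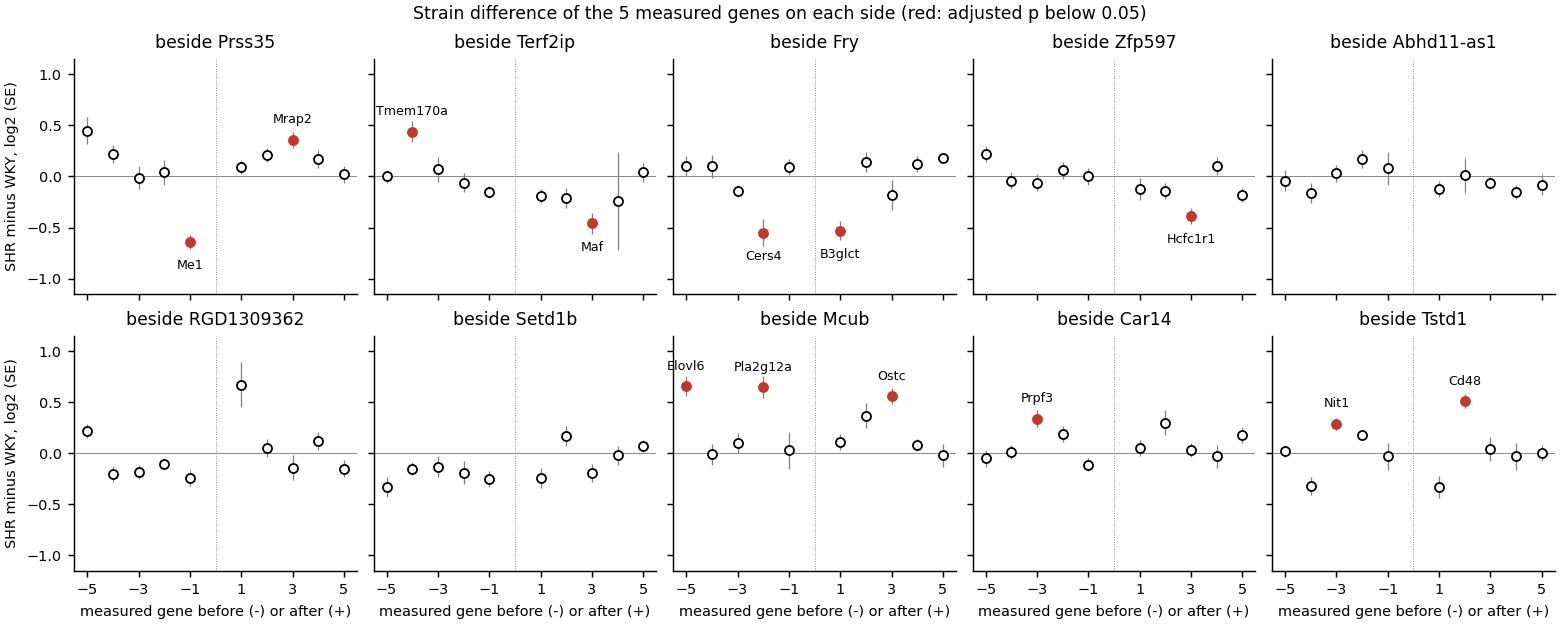
SHR minus WKY log2 difference with its SE for the 5 measured genes before (-) and after (+) each of the 10 members in the GRCr8 gene order, 1 panel a member. Red points passed the limma threshold of 0.05; there are 13 among 100 neighbours, 3 of them beside Mcub and 0 beside Abhd11-as1, RGD1309362 and Setd1b.

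Partners of the members in complexes and families were read from 9 lists with 101 genes, of which 67 were tested. The limma threshold was passed by 5, 2 higher and 3 lower in SHR. That is 7.46%, close to the 5.06% of all probe sets, and the median difference of the 67 was 0. Partners too were read at their brightest probe set, whereas the 5.06% covers every probe set kept. Among 7 shelterin and telomere genes 1 rose, the helicase gene Rtel1 (0.50, SE 0.11, limma adjusted p = 0.014), while Terf2, whose protein binds RAP1, differed by 0.07 (adjusted p = 0.821). A further Rtel1 probe set gave 0.44, and a dim one below the filter gave 0.19.

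Of the 9 tested genes around Fry and the NDR kinases 1 fell, Stk4, an upstream kinase of that pathway (-0.43, SE 0.10, limma adjusted p = 0.0108). A dim further Stk4 probe set, below the filter, gave 0.19. Fryl, the paralogue of Fry, differed by -0.22 (limma adjusted p = 0.0684). Of the 8 sulfurtransferase and sulfide genes 1 fell, Cbs, which makes cystathionine and hydrogen sulfide (607.4 in SHR and 876.1 in WKY on average, -0.52, SE 0.07, limma adjusted p = 8.77e-05). Of the 6 secreted serine proteases, Htra1 rose (0.39, SE 0.08, limma adjusted p = 0.00806) and Htra3 fell (-0.44, SE 0.11, adjusted p = 0.0254). The Htra3 call did not hold at a further probe set (0.19, adjusted p = 0.611), and a dim one below the filter gave -0.17. The call was also lost without the SHR arrays 3 (adjusted p = 0.0752) or 4 (0.0611) or the WKY arrays 1 (0.0562) or 3 (0.0534). In these settings the difference ran from -0.44 to -0.34.

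None of the 8 uniporter genes, 12 SET1 and MLL complex genes, 6 carbonic anhydrases, 7 interferon-inducible GTPases and 4 genes of the Abhd11 and Zfp597 loci passed by limma, with 2, 2, 1, 0 and 0 at an unadjusted p below 0.05, again against 17.2% of all probe sets. Mcu, the pore that MCUB modifies, differed by -0.16 (limma adjusted p = 0.493). Setd1a, the paralogue of Setd1b, differed by -0.17 (adjusted p = 0.285), and the cytosolic carbonic anhydrase Car2 by -0.19 (adjusted p = 0.359). Most partners thus showed differences that did not pass.

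For each member the genes with the most similar pattern over the 23 arrays were named by Pearson correlation, as a description: the arrays share strain and submission, so genes that differ between strains in the same order score high. Prss35 was most like the interferon-induced gene Ifi44l (r = 0.95), which averaged 35.0 in SHR, 134.1 in WKY and 69.1 in the Sprague Dawley controls, and RT1-Bb, a class II histocompatibility gene (0.91). Abhd11-as1 was most like RT1-CE16, a class I histocompatibility gene (0.91; 225.7, 47.1 and 22.7), whose probe set can read related family members. Zfp597 and Abhd11-as1 both had Cstb, the inhibitor of cathepsins (0.93 and 0.91).

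RGD1309362 was most like the peroxisomal membrane gene Pxmp4 (0.91) and Rrs1-ps9 (0.89), and Fry like Creg1 (0.91) and Actr8 (0.90). Terf2ip had Vopp1 and C1r, a complement protease gene (both 0.89). Setd1b had B3glct (0.87) and the potassium channel gene Kcna5 (0.86), Mcub had Plekhf2 (0.86) and Ap1s2 (0.83), Car14 had the ceruloplasmin gene Cp (0.88) and B3glct (0.87), and Tstd1 had Homer2 (0.84) and Ifi44l (0.82). Within groups the members did not move as a set: over 45 pairs of members the correlation of the arrays' deviations from their group means had a median of 0.08, and ran from -0.48 for Abhd11-as1 with Mcub to 0.58 for Setd1b with Car14.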

How the data were processed

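RNA pooled from 5 rats was hybridised to each of 23 arrays. The authors deposited linear intensity signals, 1 per probe set and array, made with GCOS 1.2 per the submitters' processing notes, with settings not given in the sources used here. After removal of 2% at each end every array had a mean of 99.999, so the intensities were used as deposited. The titles gave each array its group, and each value column had a sample.

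Values were analysed as log2(signal + 16). The 57 controls and the dimmest 40% of probe sets by mean were dropped, and 18625 stayed. SHR and WKY were fitted on 10 arrays and the Sprague Dawley groups on 13, with limma 3.58.1 in R 4.3.3 (lmFit, eBayes with trend and robust), two-sided, with Benjamini-Hochberg adjustment and a threshold of 0.05. Member differences between SHR and WKY have an SE from the SDs of both groups. The p-values measure the spread between pools, and the number of arrays limits the precision. Summaries and plots used Python 3.11.15 with pandas 2.3.3, scipy 1.17.1 and matplotlib 3.10.9. The fits were also run on simulated data with independent noise. The shifts put in were larger than the member differences among Sprague Dawley groups, so that run does not bear on differences as small as these.

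Gene order and names came from the RefSeq table of GRCr8, and promoters from RefSeq. Probe sequences were not used, so no probe set has a position. The text names all members, up to 2 passing genes per partner list and per member's neighbours (3 beside Mcub), the 2 genes most similar to each member, and markers; other partners and neighbours were chosen after their values were seen. Each gene counts once, at its brightest probe set. The members and lists were chosen with earlier results of these data known. The alternatives were quantile normalization, other pseudocounts, filters and eBayes settings, 1 model of all arrays, a replicate block, a Gapdh covariate, 2 neighbours a side, the controls 3 and 4 alone, only the groups compared, and each array left out in turn.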

Additional observations from a re-analysis of the deposited data

Results flagged for a closer look

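Of 75 groups of arrays at the member probe sets, 4 held 1 array far from the rest, where chance gives about 1 group in 20. The first dehydrated Sprague Dawley array read 831.8 for Terf2ip, above 679.5, 691.8 and 698.1 in the others. The second fasted array read 33.9 for Zfp597, below 52.6 to 60.8 in the others. The second WKY array read 77.2 for Tstd1, below 99.0 to 107.6 in the others and still above every SHR array. The fourth Sprague Dawley control read 25.0 at the dim Fry probe set 1395407_at, against 15.2, 16.2 and 16.3 in the others.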

How the results depend on the processing

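The number of member probe sets past the threshold in the Sprague Dawley contrasts was 0 in each of 24 alternatives per contrast. The smallest adjusted p were 0.479 for Prss35 after fasting, without control array 3, and 0.295 and 0.329 for Car14 in the contrasts with dehydration, without dehydrated array 4. Abhd11-as1, Prss35, Terf2ip and Zfp597 were the 4 genes nearer WKY in each of 19 alternatives. No called difference changed sign. Uncalled differences among Sprague Dawley groups near 0 did, in 36 values (each 1 result in 1 setting) over 11 of the results. Without controls 1 and 2, dehydrated minus control became 0.04 for Prss35, -0.17 for RGD1309362 and 0.01 for Setd1b, and fasted minus control became 0.24 for the dimmer Car14 probe set. With the Gapdh covariate, fasted minus control was -0.01 for Setd1b, and dehydrated minus fasted was 0.03 for Zfp597 (also 0.03 with the replicate block) and 0.06 for Tstd1. With quantile normalization both treatments against control were 0.01 for Zfp597, and with it, or for Zfp597 after fasting with a pseudocount of 64, 3 more values turned sign at 0. With 1 array left out, fasted minus control ran from -0.05 to 0.10 for Zfp597, -0.13 to 0.16 for Setd1b and -0.14 to 0.13 for the dimmer Car14 probe set. Dehydrated minus control ran from -0.08 to 0.03 for Zfp597 and -0.12 to 0.15 for RGD1309362. Dehydrated minus fasted ran from -0.12 to 0.04 for Zfp597, -0.16 to 0.09 for Mcub, -0.18 to 0.02 for the brighter Car14 probe set and -0.23 to 0.05 for Tstd1. SHR minus WKY at the dim Fry probe set 1395407_at, -0.03, was 0.04 without SHR array 3 and 0.03 without SHR array 4. The pseudocount set the size of differences at low signal. With 1 and 64 in place of 16, SHR minus WKY was -2.95 and -1.71 for Prss35, 1.96 and 1.22 for Zfp597, 3.34 and 1.02 for Abhd11-as1, 4.02 and 1.36 for RGD1309362, -1.76 and -0.83 for Setd1b, -1.39 and -0.84 for Mcub and -1.41 and -0.69 for Tstd1. With 64 it was 1.21 for Fry and -0.50 for the dimmer Car14 probe set. Neighbours past the threshold numbered 5 of 40 (12.5%) with 2 genes on each side, a shorter list, and from 13 to 15 with 1 array left out. Partners past the threshold numbered from 4 to 6 with 1 array left out. Same-numbered arrays deviated together weakly at most (correlations from -0.006 to 0.273 between SHR and WKY and from -0.167 to 0.059 among Sprague Dawley groups), so the numbers were not taken as pairs. With a replicate block, 18 neighbours (13 without it), 5 partners and 0 members passed in their contrasts. The Htra3 difference was also -0.44 with no filter and with the Gapdh covariate, but with adjusted p of 0.0557 and 0.0643 it did not pass. Signals near the bottom of an array carry background, which limits ratios for Abhd11-as1 and RGD1309362.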
